A study of Mus musculus with 17 samples.

Results

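The 10 genes described here mark the undifferentiated spermatogonia of the mouse testis, the stem cells and the progenitors derived from them. They are *Gfra1*, *Ret*, *Zbtb16*, *Id4*, *Nanos2*, *Nanos3*, *Etv5*, *Bcl6b*, *Lin28a* and *Sall4*, and were taken by symbol from a table of 23282 genes, in which all 10 were listed. RNA had been measured in 17 libraries of FACS-sorted germ cells at 3 stages, named here SPG for spermatogonia, PreL for spermatocytes before leptotene and LZ for those in leptotene or zygotene. WT mice gave 3 SPG, 3 PreL and 2 LZ libraries, and *Nat10* fl/-; *Stra8-GFPCre* mice (SKO) gave 3 libraries of each stage. Both genotypes were on the C57BL/6 background by the labels (C57BL/6J by the methods), and the labels give no age. In SKO mice, Cre was driven from the *Stra8* locus, which is switched on in spermatogonia that are already differentiating, and it removes 2 exons of *Nat10*, the gene of the RNA cytidine acetyltransferase that makes ac4C. Cells were told apart by their staining with a Hoechst DNA dye and propidium iodide and not by a surface marker. The study calls the libraries of a group biological replicates, but nothing in the labels says that they came from separate mice, so the p-values measure the spread between these libraries, which may be technical.

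Spermatogonial stem cells divide to renew themselves or to form progenitors, which differentiate in response to retinoic acid and enter meiosis as pre-leptotene spermatocytes. Sertoli cells, the somatic nurse cells of the tubule, secrete GDNF, which binds the coreceptor GFRA1 and signals through the receptor tyrosine kinase RET. *Etv5* and *Bcl6b* encode transcriptional regulators that respond to this signal, and *Id4* encodes an inhibitor of basic helix-loop-helix factors that marks the stem cell fraction. *Zbtb16* (PLZF) and *Sall4* encode zinc finger transcription factors, *Nanos2* and *Nanos3* encode RNA-binding repressors, and *Lin28a* encodes an RNA-binding protein that blocks let-7 maturation and marks progenitors.

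On GRCm38 (mm10), *Gfra1* lies at chr19:58235604-58455909, *Ret* at chr6:118151745-118197718, *Etv5* at chr16:22381309-22439719 and *Bcl6b* at chr11:70224128-70229798, all on the minus strand. *Zbtb16* lies at chr9:48654297-48836222, *Nanos3* at chr8:84173731-84185217, *Lin28a* at chr4:134003330-134018841 and *Sall4* at chr2:168748332-168767943, on the minus strand as well. *Id4* at chr13:48261228-48266026 and *Nanos2* at chr7:18987400-18988962 lie on the plus strand. Exons of *Gfra1*, *Id4*, *Nanos2*, *Lin28a* and *Sall4* overlap an annotated transcript on the opposite strand. Smart-seq2 libraries do not keep the strand, so reads in those overlaps cannot be assigned to either gene. The overlap is widest in *Nanos2*, where it covers 766 of 1563 exonic bases.

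Promoters of 6 of the 10 genes were listed in RefSeq (GRCm38.p6), and 3 of them are printed here because *Id4*, *Nanos3* and *Lin28a* carried the differences between groups described below. Each window runs from 250 bases before to 50 bases after the annotated start, 5′ to 3′, and capitals mark the GC box GGGCGG or its reverse complement.
*Id4* promoter, chr13:48260866-48261165, plus strand: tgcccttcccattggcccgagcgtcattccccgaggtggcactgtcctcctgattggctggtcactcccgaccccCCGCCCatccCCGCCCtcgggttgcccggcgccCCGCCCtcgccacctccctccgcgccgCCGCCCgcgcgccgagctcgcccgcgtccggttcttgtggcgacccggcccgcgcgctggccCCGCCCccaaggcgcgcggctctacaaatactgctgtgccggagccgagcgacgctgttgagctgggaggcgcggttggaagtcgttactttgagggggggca
*Nanos3* promoter, chr8:84176503-84176802, minus strand: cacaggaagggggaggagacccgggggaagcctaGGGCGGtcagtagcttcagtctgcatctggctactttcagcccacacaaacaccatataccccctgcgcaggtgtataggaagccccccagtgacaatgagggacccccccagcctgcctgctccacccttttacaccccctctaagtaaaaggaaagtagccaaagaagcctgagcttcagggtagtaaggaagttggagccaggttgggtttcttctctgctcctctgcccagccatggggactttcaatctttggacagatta
*Lin28a* promoter, chr4:134018767-134019066, minus strand: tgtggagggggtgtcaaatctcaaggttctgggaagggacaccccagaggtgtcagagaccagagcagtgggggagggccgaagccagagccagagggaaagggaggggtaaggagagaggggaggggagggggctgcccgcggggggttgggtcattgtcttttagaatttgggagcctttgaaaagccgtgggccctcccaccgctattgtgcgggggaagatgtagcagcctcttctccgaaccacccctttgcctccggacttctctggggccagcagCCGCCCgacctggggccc
The *Nanos3* window lies inside the gene interval given above, chr8:84173731-84185217, and not at its upstream end. It therefore does not cover the outermost start of that interval. The *Id4* window held 5 GC boxes and had a GC content of 73.3%, against 1 GC box and 55.3% in *Nanos3* and 1 GC box and 63.3% in *Lin28a*. Among all 32851 listed promoters of this length, 35.7% held a GC box on either strand and the median GC content was 52.7%. The E-box CANNTG, which reads the same on both strands, occurred 2 times in the *Nanos3* window and not in those of *Id4* and *Lin28a*, and 72.3% of all windows held it.

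The libraries held between 5812380 reads (SKO LZ replicate 1) and 13820953 reads (WT LZ replicate 2), and the 10 genes together took 46.5 to 181 RPM (reads-per-million of the library's reads). *Nat10* averaged 34.8 RPM in WT SPG, 31.6 in WT PreL and 28.3 in WT LZ, and 19.1, 13.1 and 7.79 RPM in the SKO groups of the same stages. Libraries of a group were not alike in somatic RNA. The summed level of 10 Sertoli cell genes was 40.5 to 62.2 RPM in WT SPG, 58.0 to 99.1 in SKO SPG and 124 to 147 in WT PreL. It was 1274 and 1574 RPM in SKO PreL replicates 1 and 2 and 105 in replicate 3, 1915 and 430 RPM in WT LZ replicates 2 and 3, and 918 to 1202 RPM in SKO LZ. Between 6 and 9 of the 10 Sertoli cell genes had more than 3 reads in a library, whereas *Amh*, an immature Sertoli cell hormone, never did.

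The SPG libraries were poor in these markers except for *Sall4*. Per exonic length, as RPM divided by kilobases of exon (RPKM), *Sall4* stood at 9.90 ± 2.19 in WT SPG (SD, n = 3), above every other member in each WT SPG library. *Etv5* followed at 1.56 ± 0.758 RPKM, *Nanos3* at 0.978 ± 0.647 and *Id4* at 0.888 ± 0.609, and the ranges of these neighbours overlapped. *Zbtb16* stood at 0.685 ± 0.304 RPKM, *Lin28a* at 0.490 ± 0.355, *Gfra1* at 0.360 ± 0.314, *Ret* at 0.351 ± 0.352 and *Bcl6b* at 0.135 ± 0.125, again with overlapping neighbours. Of the genes of differentiating spermatogonia, 4 given as references were more abundant in the same libraries on the same scale. *Stra8*, a retinoic acid target, stood at 181 ± 32.2 RPKM, *Dmrt1*, a regulator of the switch to meiosis, at 152 ± 16.4, *Sohlh1*, a differentiation factor, at 31.2 ± 2.41 and the receptor gene *Kit* at 18.2 ± 1.76. Each of these 4 genes averaged above every member. The other genes of that list of 11 were not compared on this scale, so this does not hold for the list as a whole. Nor were other genes of undifferentiated spermatogonia low as a sum in WT SPG. There 24 such genes summed to 1208 to 1406 RPM, the 11 differentiating genes to 1425 to 1472 and the 10 members to 69.2 to 83.0. In WT LZ the 24 genes summed to 574 and 897 RPM. Ranked per length among the genes with at least 1 read in a WT SPG library, *Sall4* averaged the percentile 71.1 and the others 0 (*Nanos2*) to 40.4 (*Etv5*).

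*Sall4* was also the only member whose mean RPM was highest in SPG. Of the remaining 9 genes, 4 had their highest group mean in WT LZ (*Gfra1*, *Id4*, *Etv5*, *Bcl6b*) and 5 in SKO LZ (*Ret*, *Zbtb16*, *Nanos2*, *Nanos3*, *Lin28a*), the most advanced cells of the series by label. The order per length changed accordingly. In WT LZ *Id4* led at 11.2 ± 0.851 RPKM (n = 2), overlapping *Sall4* at 7.28 ± 6.47. In SKO LZ *Nanos3* led at 9.56 ± 1.38 RPKM and did not overlap *Sall4* at 6.48 ± 0.906, which in turn did not overlap *Id4* at 3.86 ± 1.24 (n = 3). *Sall4* made up 84.5% of the reads of the 10 genes in SKO SPG replicate 3 and 18.0% in WT LZ replicate 3, where *Id4* made up 54.6%.

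**Figure D1:**
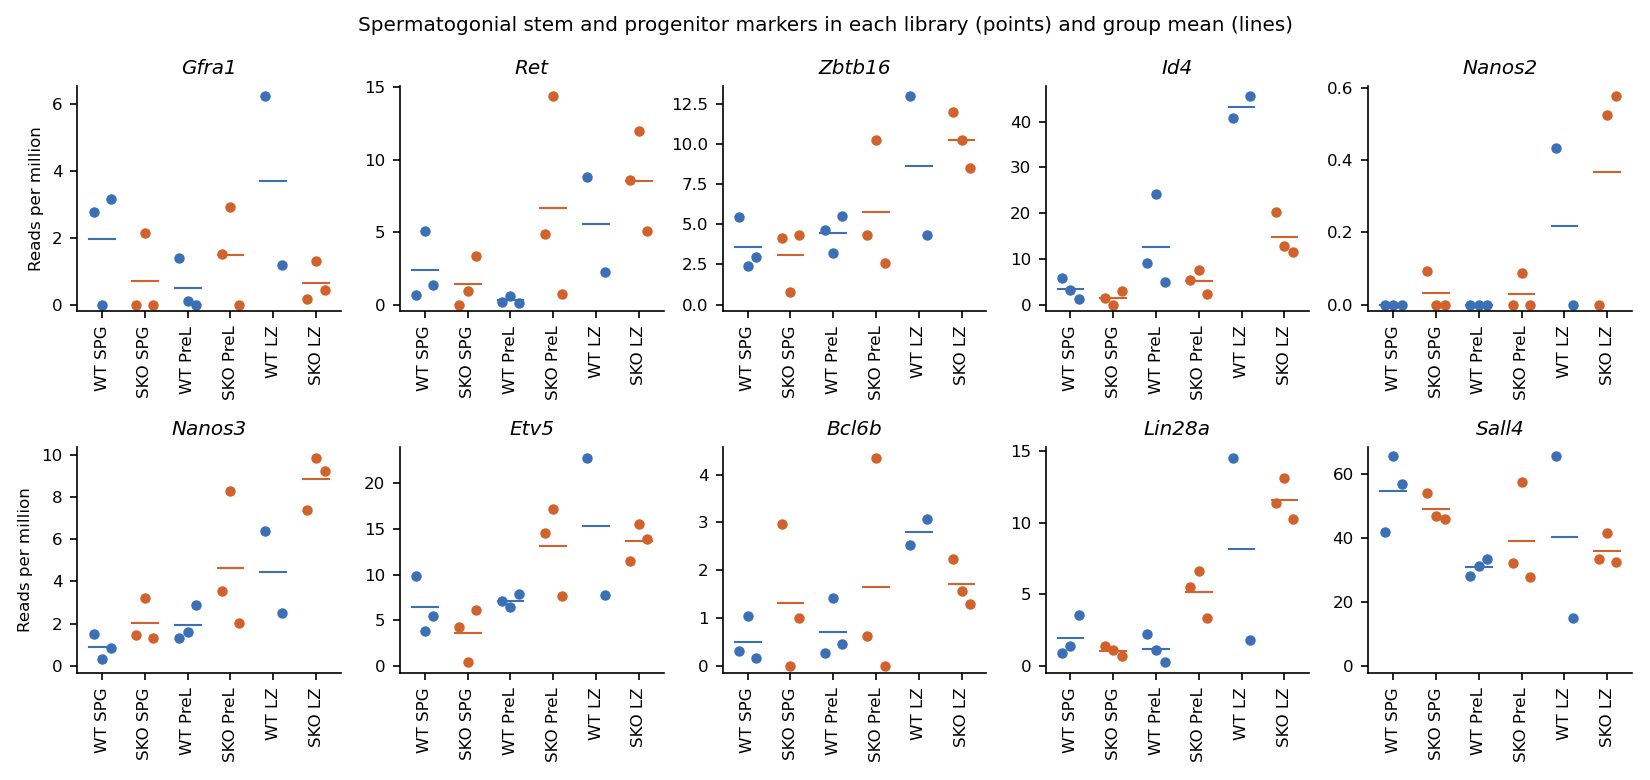
RPM of each gene in each library, on a linear axis that differs between panels, with WT in blue, SKO in orange, points for libraries and lines for group means. *Sall4* is the only panel with its highest mean in SPG, and *Id4* in WT LZ stands at 40.9 and 45.5 RPM, above all other libraries.

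*Nanos2*, a repressor that holds stem cells in the undifferentiated state, was barely seen. It had 0 reads in 12 of the 17 libraries, including all WT SPG and WT PreL libraries, 1 read in SKO SPG replicate 1 and in SKO PreL replicate 2, 6 reads in WT LZ replicate 2, and 4 reads each in SKO LZ replicates 2 and 3. A count of 0 allows up to 3 reads, which corresponds to 0.217 to 0.516 RPM depending on the library and covers counting error only. With a mean of 0.941 reads, *Nanos2* passed no filter on low values and no difference in it was detectable at this depth. The other 9 genes had a mean of at least 10 reads in every comparison, apart from *Bcl6b* in PreL against SPG of WT.

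Comparing SKO with WT in each stage asks whether the SKO genotype goes along with other levels of these markers. As fl/-, SKO mice by name also lack 1 *Nat10* allele in cells without Cre, which this comparison does not separate from the Cre deletion. Values were rescaled by size factors within each comparison and tested as log2(value + 10) with limma over all genes that passed the filter, a scale that understates changes of low genes. A gene was called when its Benjamini-Hochberg adjusted p was under 0.05 and its log2 fold change was above 1 or below -1. In bulk RNA of sorted cells, fewer cells of a type and less RNA per cell cannot be told apart.

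In SPG, none of the 9 genes tested was called, where 6.03% of all 12846 genes were. limma gave 0 genes with an unadjusted p under 0.05, against 26.0% of all genes. edgeR and DESeq2 also gave 0 and called none. *Sall4* had 41.8, 65.8 and 56.9 RPM in WT and 54.2, 46.8 and 45.8 in SKO. Its log2 fold change was -0.16 ± 0.21 (SE), with a 95% interval from -0.61 to 0.30. The *Sall4* ranges overlapped, and the interval lies inside a log2 change of 1 in either direction.

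The remaining SPG values were lower and more scattered. *Etv5* had 9.89, 3.88 and 5.49 RPM in WT and 4.25, 0.405 and 6.13 in SKO (log2 fold change -0.99 ± 0.62, adjusted p = 0.345 by limma). *Id4* had 5.90, 3.11 and 1.25 RPM in WT and 1.39, 0 and 2.85 in SKO (-1.06 ± 0.66, adjusted p = 0.342). *Gfra1*, the GDNF coreceptor, was absent from 1 WT library and from 2 SKO libraries. It had 2.76, 0 and 3.16 RPM in WT and 0, 2.12 and 0 in SKO, with an interval of the log2 fold change from -2.50 to 0.77. *Ret*, its signalling partner, had 0.690, 5.09 and 1.33 RPM in WT and 0, 0.910 and 3.36 in SKO. Both genes of the receptor pair thus varied more between libraries of 1 genotype than between the group means. Nor did *Zbtb16*, *Lin28a*, *Nanos3* and *Bcl6b* separate the genotypes: their log2 fold changes ran from -0.49 (*Lin28a*) to 0.74 (*Nanos3*), and every pair of ranges overlapped. Of the 9 estimates 7 were below 0, with a median of -0.49 against 0.0012 over all genes tested.

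In PreL, *Lin28a* was the only one of 9 genes called, and it was higher in SKO. Of all 13132 genes tested, 11.2% were called in either direction and 5.34% as higher. *Lin28a* had 2.24, 1.13 and 0.280 RPM in WT and 5.52, 6.66 and 3.38 in SKO, so that every SKO library lay above every WT library. Its log2 fold change was 1.81 ± 0.51 (adjusted p = 0.0375 by limma). The call was lost without a filter (0.0726), with a pseudocount of 1 (0.0583), with edgeR (adjusted p = 0.0779) and when WT replicate 2 or 4 or SKO replicate 1 or 2 was left out, with adjusted p from 0.0679 to 0.141. Without both SKO replicates 1 and 2, those rich in Sertoli cell genes, the log2 fold change was 1.33. That fit left 1 SKO library, too few to judge a call, so it cannot show whether the Sertoli-rich libraries carried the call.

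*Ret* moved furthest in PreL but missed the threshold with limma. It had 0.187, 0.567 and 0.0932 RPM in WT, no more than 6 reads in a library, and 4.90, 14.4 and 0.711 in SKO. The SKO libraries lay above the WT libraries, by a wide margin in replicates 1 and 2 and a narrow one in replicate 3. The log2 fold change was 2.53 ± 0.78 with an adjusted p of 0.0524 by limma. edgeR (adjusted p = 0.0301) and DESeq2 (0.000414) called *Ret* as higher in SKO, and so did limma in 1 fit of all libraries (0.0311), with the replicate number as a block (0.00359) and without SKO replicate 3 (0.00507). Leaving out any other single library gave limma adjusted p from 0.0981 to 0.188. *Etv5*, downstream of this receptor, had 7.09, 6.43 and 7.83 RPM in WT and 14.6, 17.2 and 7.64 in SKO. Its log2 fold change was 0.71 ± 0.31 (adjusted p = 0.146), and SKO replicate 3 lay within the WT range.

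*Id4* was the only PreL estimate below 0. It had 9.06, 24.1 and 4.85 RPM in WT and 5.43, 7.63 and 2.31 in SKO, with overlapping ranges (log2 fold change -1.13 ± 0.56, adjusted p = 0.187 by limma). The summed level of 10 late spermatocyte genes was 599, 1231 and 433 RPM in the same WT libraries, in the order of their *Id4* levels. In the SKO libraries it was 151, 176 and 171 RPM, which is not the order of their *Id4* levels. The share of all genes with the order of these sums was not counted. *Sall4* had 28.3, 31.2 and 33.5 RPM in WT and 32.1, 57.4 and 27.9 in SKO, and *Zbtb16* 4.67, 3.22 and 5.50 against 4.36, 10.3 and 2.58. For both genes SKO replicate 2 lay above the WT libraries and SKO replicate 3 below them, in *Sall4* by a narrow margin. *Gfra1* reached 1.40 RPM in WT and 2.93 in SKO, *Bcl6b* 1.42 and 4.35, and *Nanos3* 2.89 and 8.25, and their log2 fold changes of 0.83, 0.24 and 0.87 came with overlapping ranges. All 10 genes were highest in replicate 2 within SKO PreL, *Nanos2* by 1 read, and 9 were lowest in replicate 3, the exception being *Nanos2*. The order of the Sertoli cell sums was the same. So was that of the Leydig cell sums (282, 469 and 41.2 RPM in replicates 1 to 3) and the macrophage sums (74.7, 82.6 and 18.9). Peritubular myoid sums (45.3, 43.3 and 16.0 RPM) and endothelial sums (6.06, 5.95 and 9.86) had other orders. The part of these lists in the differences was not tested. Genes detected also numbered most in replicate 2 (17818) and fewest in replicate 3 (15908), with 16527 in replicate 1. The share of all genes with this order was not counted, so it is not shown to be particular to the markers.

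In LZ, 2 of the 9 genes were called, in opposite directions, where 39.1% of all 13724 genes were called, 13.4% as higher and 25.8% as lower. *Nanos3* was higher in SKO and *Id4* was lower. *Nanos3* had 6.37 and 2.49 RPM in WT and 7.40, 9.86 and 9.24 in SKO, so the groups did not overlap (log2 fold change 1.46 ± 0.38, adjusted p = 0.0149 by limma). *Id4* had 40.9 and 45.5 RPM in WT and 20.3, 12.9 and 11.4 in SKO. Its log2 fold change was -1.20 ± 0.35 with an adjusted p of 0.0237. The 2 WT libraries were close in *Id4*, whereas their Sertoli cell sums were 1915 and 430 RPM. Late spermatocyte genes summed to 3792 and 6718 RPM in WT LZ, with all 10 above 3 reads in each library, and to 169 to 178 RPM in SKO LZ, with 6 above 3 reads in each. All 10 were called as lower in SKO LZ, and their part in the *Id4* difference was not tested. With 2 WT libraries these calls were fragile: both were lost without WT replicate 3, SKO replicate 2 or SKO replicate 3, with adjusted p from 0.0538 to 0.226, and *Id4* also without WT replicate 2 (0.0856).

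The other LZ genes were split by WT replicate 2. *Lin28a* had 14.5 and 1.83 RPM in WT and 11.4, 13.1 and 10.2 in SKO (log2 fold change 1.48 ± 0.65, adjusted p = 0.0954 by limma). *Sall4* had 65.6 and 15.0 RPM in WT and 33.4, 41.7 and 32.6 in SKO. *Etv5* had 22.8 and 7.76 RPM in WT and 11.5, 15.5 and 13.9 in SKO. In each of these 3 genes the SKO libraries lay between the WT libraries. *Ret* had 8.83 and 2.27 RPM in WT and 8.60, 12.0 and 5.05 in SKO, and *Zbtb16* 13.0 and 4.32 against 12.0, 10.3 and 8.52. Within WT LZ, 8 of the 10 genes were higher in replicate 2, the library with more Sertoli cell RNA, and only *Id4* and *Bcl6b* were higher in replicate 3. The share of all genes higher in replicate 2 was not counted. Without WT replicate 2, *Lin28a* (log2 fold change 2.68) and *Sall4* (1.38) joined *Nanos3* as higher in SKO. *Gfra1* had 6.22 and 1.17 RPM in WT and 0.172, 1.31 and 0.433 in SKO (-1.79 ± 0.75, adjusted p = 0.0830), and *Bcl6b* 2.53 and 3.07 against 2.24, 1.58 and 1.30, where the groups did not overlap but the log2 fold change was -0.34 ± 0.47.

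**Figure D2:**
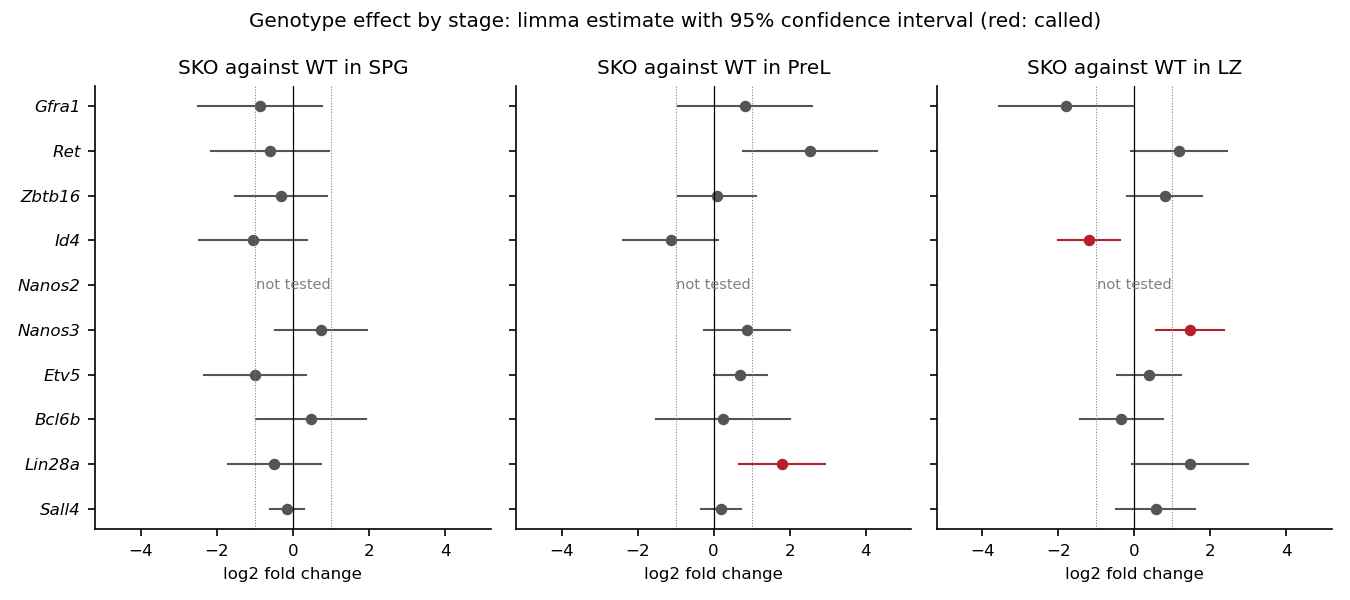
Log2 fold change of SKO against WT for each gene in SPG, PreL and LZ, with points for limma estimates, bars for 95% confidence intervals, red for called genes and dotted lines at a change of 1 in either direction. No interval is red in SPG, *Lin28a* is in PreL, and *Nanos3* and *Id4* are on opposite sides in LZ.

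The stage comparisons follow the markers as cells enter meiosis. In WT, from SPG to PreL, none of 8 genes was called by limma, where 3.75% of 12657 genes were. limma gave 2 genes with an unadjusted p under 0.05 (26.3% of all genes), edgeR gave 3 and called none, and DESeq2 gave 3 and called *Id4* as higher in PreL. *Sall4* fell short of the threshold: all PreL libraries (28.3 to 33.5 RPM) lay below all SPG libraries (41.8 to 65.8 RPM), with a log2 fold change of -0.76 ± 0.22 and an adjusted p of 0.0620. *Ret* also lay lower in every PreL library (-1.42 ± 0.65, adjusted p = 0.192). *Id4* went the other way, from 1.25 to 5.90 RPM in SPG to 4.85 to 24.1 in PreL (1.63 ± 0.58, adjusted p = 0.106), with overlapping ranges.

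From PreL to LZ in WT, *Id4* and *Ret* rose, 2 of 9 genes tested, where 26.6% of 13759 genes were called and 18.8% as higher. *Id4* went from 4.85 to 24.1 RPM in PreL to 40.9 and 45.5 in LZ (log2 fold change 1.87 ± 0.56, adjusted p = 0.0306 by limma). *Ret* went from 0.0932 to 0.567 RPM to 8.83 and 2.27 (2.80 ± 0.70, adjusted p = 0.0156). Every LZ library lay above every PreL library for both genes. *Id4* lost its call with edgeR (adjusted p = 0.0702) and without WT PreL replicate 1 or 4 or either LZ replicate (0.0786 to 0.203), and *Ret* without PreL replicate 1 (0.0505) or LZ replicate 2 (0.107). All 9 Sertoli cell genes tested were called as higher in LZ in the same comparison, and so were all 10 late spermatocyte genes, with median log2 fold changes of 2.45 and 3.09. Across these 5 WT libraries *Id4* had the same order as the late spermatocyte sums, which ran from 433 to 1231 RPM in PreL and were 3792 and 6718 in LZ. The orders differed in WT SPG replicates 1 to 3, with 5.90, 3.11 and 1.25 RPM of *Id4* and late spermatocyte sums of 338, 252 and 319 RPM. The share of all genes with the order of these sums was not counted. The part of either list in the *Id4* and *Ret* differences was not tested. *Sall4* was not called, and its 2 LZ libraries lay on either side of the PreL range.

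In SKO, none of 9 genes was called by limma from SPG to PreL, where 2.57% of 12882 genes were. limma gave 3 genes with an unadjusted p under 0.05 (23.3% of all genes), edgeR gave 2 and called none, and DESeq2 gave 2 and called *Lin28a*. *Lin28a* had 0.672 to 1.39 RPM in SPG and 3.38 to 6.66 in PreL (log2 fold change 1.79 ± 0.46, adjusted p = 0.0517), and *Etv5* 0.405 to 6.13 against 7.64 to 17.2 (2.05 ± 0.65, adjusted p = 0.0923). Neither gene's groups overlapped. These PreL libraries include the 2 rich in Sertoli cell genes, and 5 of 9 Sertoli cell genes tested were called as higher in PreL.

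From PreL to LZ in SKO, 4 of 9 genes rose, namely *Id4*, *Lin28a*, *Nanos3* and *Zbtb16*, and none fell, where 17.5% of 12477 genes were called and 10.6% as higher. *Id4* had 2.31 to 7.63 RPM in PreL and 11.4 to 20.3 in LZ (log2 fold change 1.99 ± 0.39, adjusted p = 0.00454 by limma). *Lin28a* had 3.38 to 6.66 RPM in PreL and 10.2 to 13.1 in LZ (1.57 ± 0.25, adjusted p = 0.00169). For both genes every LZ library lay above every PreL library, and both calls held whichever single library was left out. The late spermatocyte sums were 151 to 176 RPM in these PreL libraries and 169 to 178 in LZ. *Nanos3* had 2.04 to 8.25 RPM in PreL and 7.40 to 9.86 in LZ (1.50 ± 0.39, adjusted p = 0.0163), and *Zbtb16* 2.58 to 10.3 and 8.52 to 12.0 (1.41 ± 0.40, adjusted p = 0.0234). Their ranges overlapped because PreL replicate 2 reached into the LZ range. *Nanos3* lost its call without PreL replicate 1 or LZ replicate 2 or 3, and *Zbtb16* without PreL replicate 1 or LZ replicate 1 or 2. The 9 Sertoli cell genes tested by limma had a median log2 fold change of 1.25 in this comparison, with 1 at an unadjusted p under 0.05 and none called. The median over the 9 markers was 1.39, against -0.011 over all genes.

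**Figure D3:**
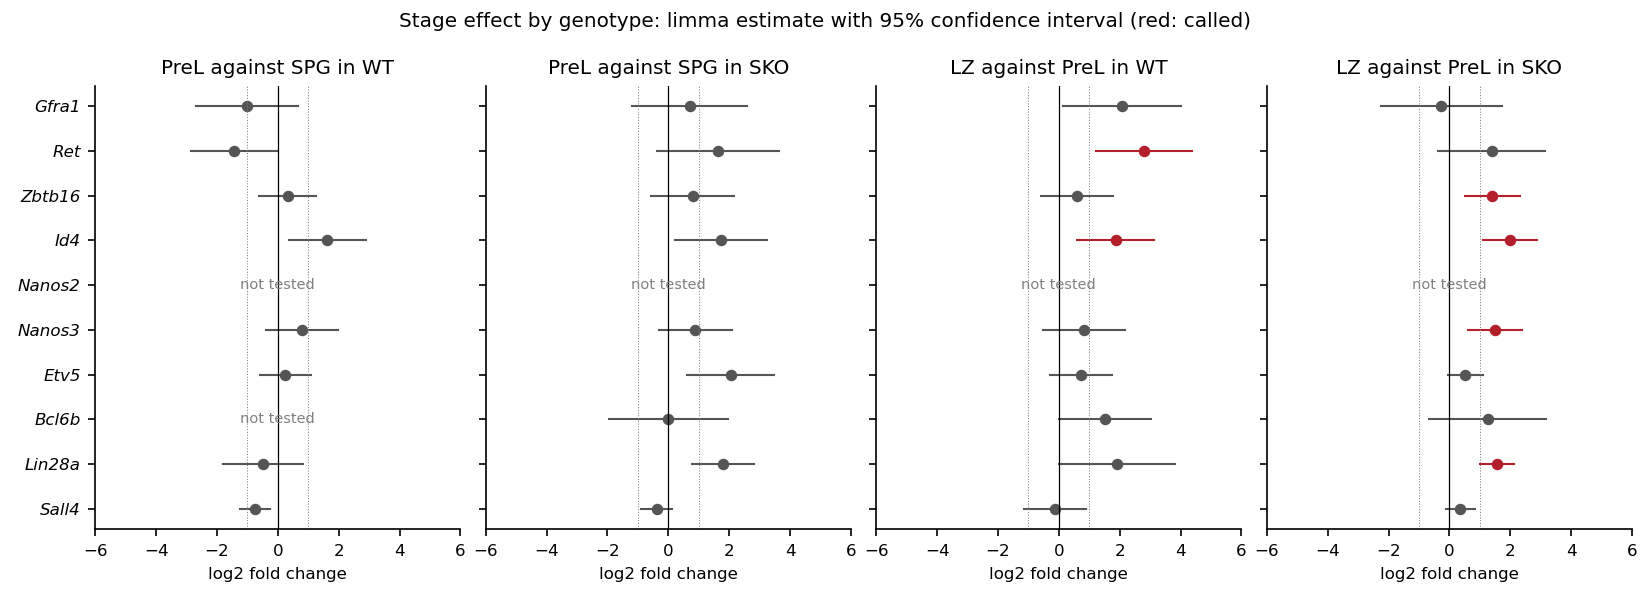
Log2 fold change between consecutive stages for each gene, in WT and in SKO, with points for limma estimates, bars for 95% confidence intervals and red for called genes. *Id4* and *Ret* are red from PreL to LZ in WT, and *Id4*, *Lin28a*, *Nanos3* and *Zbtb16* in SKO, while no gene is red from SPG to PreL.

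Whether the genotype effect itself changed between stages was tested as an interaction over all 17 libraries. Between SPG and PreL, none of 9 genes passed an adjusted p of 0.05 with limma, where 0.362% of 13530 genes did. limma gave 3 genes with an unadjusted p under 0.05 (15.2% of all genes) and edgeR 2 with none passing, while DESeq2 gave 2, of which *Ret* passed. The interaction was 3.37 ± 1.17 for *Ret* (adjusted p = 0.193), 2.39 ± 0.83 for *Lin28a* (0.192) and 1.81 ± 0.78 for *Etv5* (0.276), on the log2 scale. Between PreL and LZ, none of 9 genes passed, where 38.1% of the genes did. limma, where 46.8% of all genes had an unadjusted p under 0.05, gave 0, edgeR gave 0 and DESeq2 gave 1, none of them past the threshold. The widest estimate was that of *Gfra1*, -2.38 ± 1.35 (adjusted p = 0.174). For *Id4* the genotype effects of PreL and LZ differed by -0.02 ± 0.98, an interval from -2.08 to 2.03. The call of *Lin28a* in PreL and those of *Nanos3* and *Id4* in LZ were therefore not shown to be particular to their stage.

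On the ERCC-calibrated scale as deposited, without rescaling between libraries, all genes shifted together and the markers with them. From PreL to LZ in WT all 9 genes tested were called as higher, *Sall4* included (log2 fold change 1.68, against -0.13 after rescaling), where 80.0% of all genes were called and their median was 1.86. In SKO the same step gave 7 calls (*Etv5*, *Id4*, *Lin28a*, *Nanos3*, *Ret*, *Sall4* and *Zbtb16*), where 36.6% of all genes were called and their median was 0.81. SKO against WT in PreL gave 4 calls (*Etv5*, *Lin28a*, *Nanos3* and *Ret*), all as higher in SKO, where 30.8% of all genes were called and their median was 0.73. The changes given here after rescaling are thus relative to the bulk of the genes. *Id4* and *Nanos3* kept opposite directions in LZ on both scales.

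Set against the Sertoli cell sums, the markers did not all behave alike. *Etv5* stood between 0.405 and 9.89 RPM in the 11 libraries with less than 500 RPM of Sertoli cell genes, and between 11.5 and 22.8 RPM in the 6 libraries above it. *Lin28a* stood between 0.280 and 3.57 RPM in the former and between 5.52 and 14.5 in the latter. *Nanos3* stood between 0.345 and 3.24 RPM in the former and between 3.56 and 9.86 in the latter. The 2 sets of libraries did not overlap for any of these 3 genes, although the gap was narrow for *Nanos3*, and their part in the *Lin28a* and *Nanos3* calls was not tested. This depends on the limit of 500 RPM, which leaves WT LZ replicate 3, at 430 RPM of Sertoli cell genes, in the lower set. That library had 7.76 RPM of *Etv5*, 1.83 of *Lin28a* and 2.49 of *Nanos3*. Placed in the upper set, it would make the sets overlap for all 3 genes. The 2 sets of libraries mix stage and genotype, as 3 of the 6 are SKO LZ libraries, and are a description rather than groups of the study. The share of all genes that separate them likewise was not counted, so the split is not shown to be particular to these markers. *Id4* did not separate the 2 sets. Its highest level, 45.5 RPM, was in WT LZ replicate 3, at 430 RPM of Sertoli cell genes. It had 5.43 and 7.63 RPM in the SKO PreL libraries at 1274 and 1574 RPM. *Sall4* had 65.8 RPM at 41.9 RPM of Sertoli cell genes and 65.6 RPM at 1915.

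**Figure D4:**
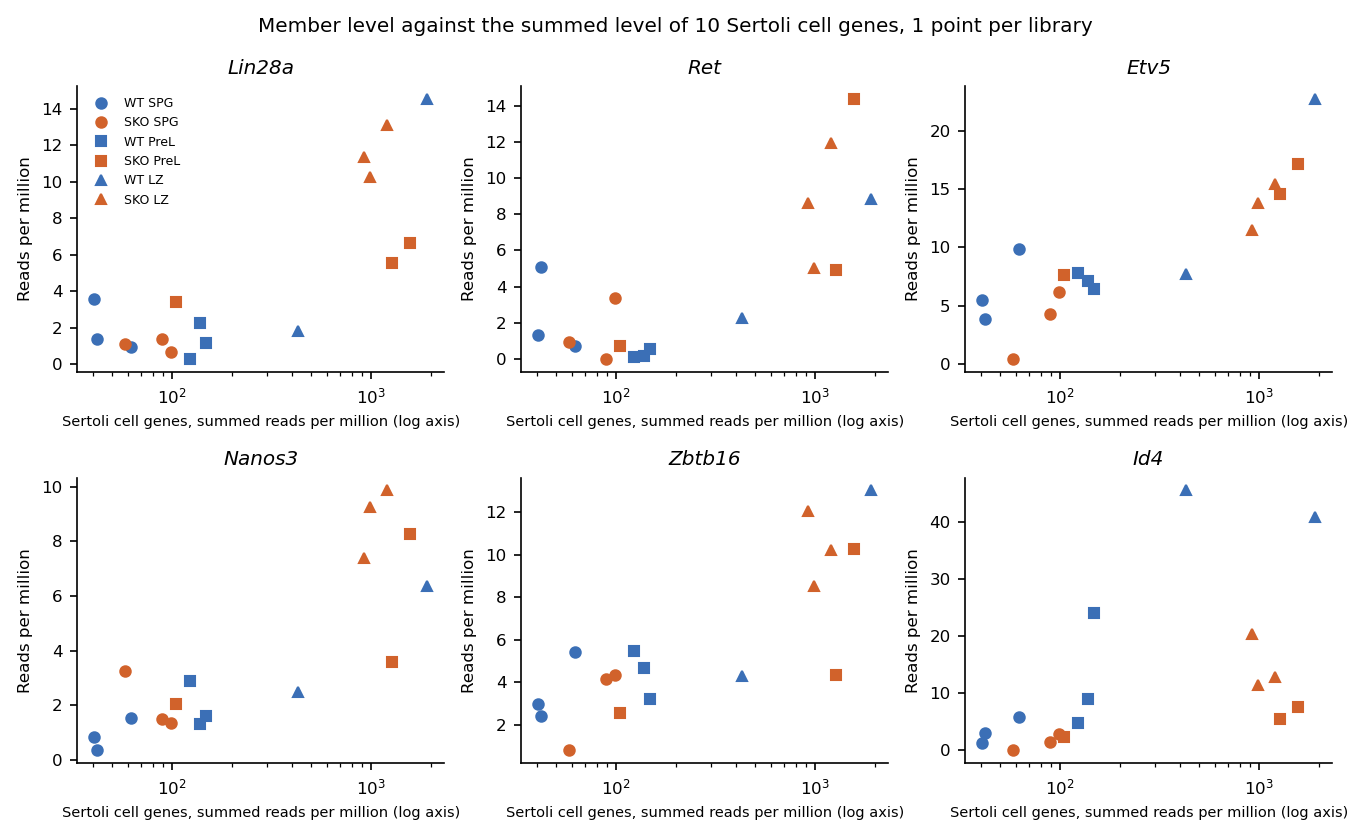
Level of 6 of the genes (vertical, RPM) against the summed level of 10 Sertoli cell genes (horizontal, RPM, log axis) in the 17 libraries, with colours for genotype and symbols for stage. *Lin28a*, *Etv5* and *Nanos3* lie higher in all 6 libraries at the right, *Nanos3* by a narrow margin (3.56 against 3.24 RPM), while *Id4* is highest in the WT LZ library at 430 RPM.

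The other genes of undifferentiated spermatogonia moved in part with the 10 markers. In LZ, 13.4% of all genes were called as higher in SKO, 25.8% as lower and 39.1% in either direction. Of 24 other undifferentiated spermatogonia genes listed, 16 could be tested there, and 7 were called as higher and none as lower. Their median log2 fold change was 1.16 against -0.13 over all genes. They included *Pou3f1*, a GDNF-responsive transcription factor gene (2.11 ± 0.46, adjusted p = 0.00705 by limma), *Mycn* (2.09 ± 0.25, 0.000444), *Sox3*, a progenitor factor gene (1.40 ± 0.40, 0.0218), and the *Lin28a* paralogue *Lin28b* (1.05 ± 0.23, 0.00735). In SPG 1 of 16 (6.03% of all genes) and in PreL 2 of 15 (11.2% of all genes) were called, each as higher in SKO. From PreL to LZ in WT, 2 of 16 were called (26.6% of all genes), *Lin28b* (-1.37 ± 0.25) and *Mycn* (-1.03 ± 0.33), both as lower. The median log2 fold change of the 16 was -0.28, against 1.51 for the members tested and 0.13 over all genes. In SKO, 5 of 15 were called as higher and 1 as lower, where 17.5% of all genes were called and 10.6% as higher. Those higher included *Mycn* (1.21 ± 0.15) and *Sox3* (1.14 ± 0.26). In the interaction test between PreL and LZ, 4 of 15 genes of this list passed with limma, where 38.1% of all genes did. They included *Mycn* (2.12 ± 0.31, adjusted p = 3.75e-05), *Lin28b* (1.03 ± 0.24, 0.00256) and *Foxo1* (0.75 ± 0.26, 0.0318).

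Of 31 genes of the GDNF and FGF pathways, 24 were tested in LZ, with 5 called as higher and 5 as lower in SKO, a share near the 39.1% of all genes called there. *Ptpn11* (1.33 ± 0.24) and *Map2k1* (1.19 ± 0.15), which carry the receptor signal to the kinase cascade, were higher, and the adaptor gene *Frs3* (-1.37 ± 0.40) and the kinase gene *Mapk3* (-1.15 ± 0.22) were lower. In SPG 1 of 21 and in PreL 2 of 22 were called, near or below the 6.03% and 11.2% of all genes, and each was higher in SKO, *Sos1*, an exchange factor for RAS, in both (1.67 ± 0.29 and 1.13 ± 0.23). *Gdnf* itself, the ligand of *Gfra1* and *Ret*, had 0 reads in WT SPG and WT PreL and averaged 0.145 RPM in WT LZ, 0.623 in SKO PreL and 0.377 in SKO LZ. Both LZ means lie below the level of 3 reads, which is 0.217 and 0.220 RPM in WT LZ and 0.394 to 0.516 in SKO LZ. No difference in *Gdnf* is read from these values. From PreL to LZ in SKO, 2 of 22 pathway genes were called (17.5% of all genes), both as higher, among them the feedback phosphatase gene *Dusp6* (1.65 ± 0.56, adjusted p = 0.0465). Among 11 genes of differentiating spermatogonia, 4 were called as higher in SKO LZ, including *Dmrt1* (1.29 ± 0.21) and *Kit* (1.12 ± 0.21), and *Dmrtb1* as lower (-1.13 ± 0.38). Of all genes, 13.4% were called as higher there, 25.8% as lower and 39.1% in either direction. The median log2 fold change of these 11 genes was 0.82, against 1.16 for the 16 other undifferentiated spermatogonia genes and -0.13 over all genes. A rise in SKO LZ was thus not particular to the undifferentiated list.

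Each gene's profile over the 6 group means was compared with those of 8666 genes averaging 100 reads or more, by the root mean square difference of centred log2 values. The nearest gene to *Sall4* was *Tigd2* (0.0570), to *Zbtb16* *Rpl22l1* (0.138), to *Gfra1* *Miip* (0.156) and to *Bcl6b* *Pramef8* (0.163). *Etv5* lay nearest to *Trim52* (0.209), *Nanos3* to *Man2a1* (0.236), *Lin28a* to *Camkk2* (0.308), *Id4* to *Gml* (0.464) and *Ret* to *Map4k4* (0.528). Within the 10 genes *Ret* and *Lin28a* were nearest to each other (0.350), *Etv5* and *Zbtb16* likewise (0.391), and *Id4* was the most isolated, 1.05 from its nearest member, *Etv5*.

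**Figure D5:**
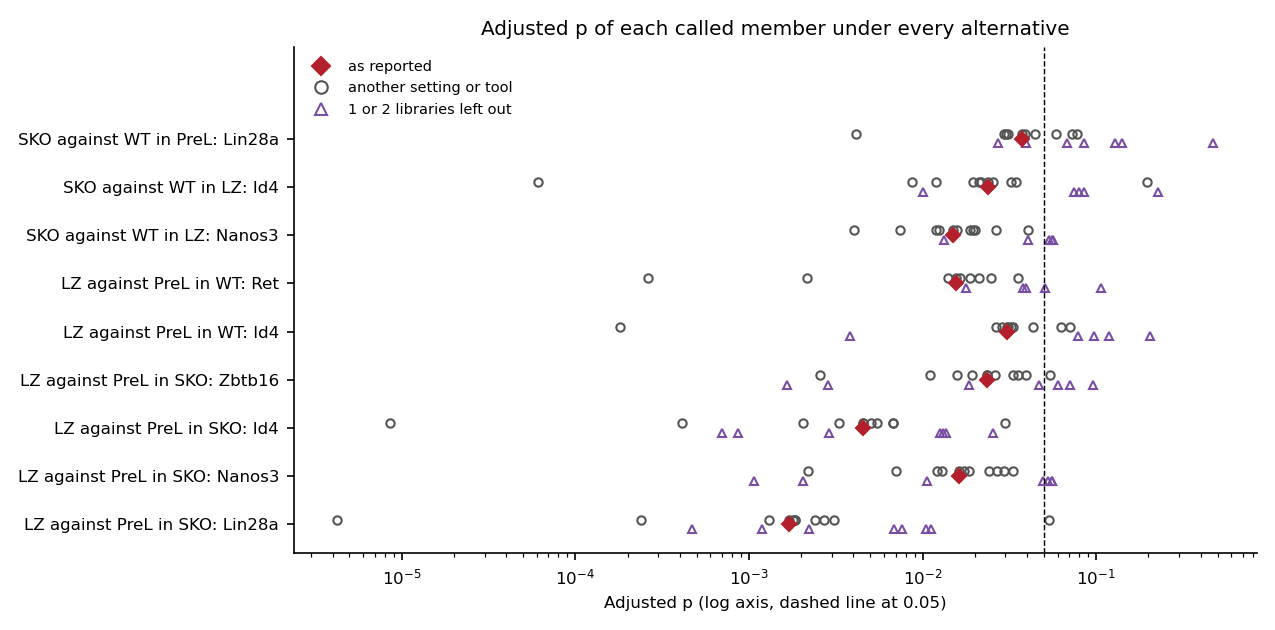
Adjusted p (horizontal, log axis, dashed line at 0.05) of the 9 member calls, with red diamonds for the reported value, circles for other settings or tools and triangles for fits with 1 or 2 libraries left out. *Id4* from PreL to LZ in SKO stays left of the line throughout, and *Lin28a* there crosses it once, at 0.0538, in a single fit of all libraries.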

How the data were processed

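Sorted SPG, PreL and LZ of WT and SKO mice were measured by Smart-seq2 RNA-seq in 17 libraries. According to the methods, the authors mapped reads to mm10 and counted them by gene with HTSeq (0.11.2), using reads with a single mapping, and then scaled each library by 1 factor based on ERCC RNA and on how many cells went in. The deposited signal values are these calibrated counts of 23282 genes. Dividing by each library's smallest value gave whole reads for 100.0% of values (tolerance 0.01), from which RPM and RPKM (exon lengths of GENCODE M21) were computed. PCR reads are not independent molecules, so count limits cover counting error only.

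After division by size factors (median of ratios), genes averaging 10 reads or more were kept and log2(value + 10) was tested with limma 3.58.1 (R 4.3.3, mean-variance trend), in the libraries of each comparison or, for interactions, in all 17. limma was chosen because calibrated values are not whole reads, and edgeR 4.0.16 and DESeq2 1.42.0 ran on the recovered reads. The tests were tried on simulated data. No tested comparison of libraries was left out.

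The 10 genes and all gene lists were chosen with earlier results of these data known. Every member was named. Of other lists, genes were named if they were among the 4 with the largest change of a comparison, were called and averaged 100 reads or more; *Kit*, *Stra8*, *Sohlh1*, *Dmrt1*, *Gdnf*, *Amh* and *Nat10* are given as references. No promoter of *Ret*, *Zbtb16*, *Bcl6b* and *Sall4* was used here.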

Additional observations from a re-analysis of the deposited data

How the results depend on the processing

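Of 1171 alternative values for single genes, 1058 kept the direction and the side of the threshold, 42 moved past it, 32 fell short of it and 39 changed direction. TMM scaling changed no call. Values near 0, few reads for most members and 2 WT LZ libraries limit every comparison, and the causes of the changes below were not tested unless fewer libraries or genes entered.

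The number of genes called in PreL (SKO against WT, 1 as reported) was 4 without rescaling and 2 with DESeq2 and in 1 fit of all libraries. It was 0 with a pseudocount of 1, without a filter or at a mean of at least 50 reads. Leaving out SKO PreL replicates 1 and 2, an alternative chosen after seeing the data, left 1 SKO library, so no count is given. With single libraries left out the number ranged from 0 to 2. In LZ it was 1 in the fit of all libraries and ranged from 0 (without WT LZ replicate 3 or SKO LZ replicate 2 or 3) to 3 (without WT LZ replicate 2). DESeq2 gave 1 for PreL against SPG in WT. For LZ against PreL in WT (2 as reported) the number was 9 without rescaling and 1 without a filter, at a mean of at least 50 reads and with edgeR, and ranged from 0 to 2 with single libraries left out, 0 without WT PreL replicate 1 or WT LZ replicate 2. For PreL against SPG in SKO (0) it was 6 without rescaling and 1 with a pseudocount of 50, DESeq2 or the fit of all libraries. For LZ against PreL in SKO (4) it was 7 without rescaling and 2 in the fit of all libraries, with a range from 2 (without SKO PreL replicate 1 or SKO LZ replicate 2) to 5. The interaction between SPG and PreL (0) gave 4 without rescaling and 1 with DESeq2, and that between PreL and LZ (0) gave 1 without rescaling and from 0 to 1 with single libraries left out, *Sall4* without WT LZ replicate 2.

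Without rescaling the median log2 fold change of all genes shifted by -0.25, 0.69 and -0.12 for SKO against WT in SPG, PreL and LZ, by 0.98 and 0.82 for the consecutive steps in SKO, by 0.071 and 1.73 for those in WT, and by 0.95 and -0.81 for the interactions. The split of all calls moved from 508 higher and 266 lower to 399 and 578 in SPG, from 701 and 765 to 3459 and 585 in PreL, from 2585 and 1073 to 10992 and 15 for LZ against PreL in WT, from 322 and 153 to 332 and 95 and from 209 and 122 to 5657 and 30 for PreL against SPG in WT and SKO, from 1319 and 865 to 4409 and 152 for LZ against PreL in SKO, and for the interactions from 34 and 15 to 5938 and 147 and from 2040 and 3121 to 749 and 6575.

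Estimates that changed direction were mostly close to 0. Without rescaling *Sall4* was 1.68 for LZ against PreL in WT and 0.65 for PreL against SPG in SKO, and *Gfra1* 0.19 for LZ against PreL in SKO. *Sall4* in LZ against PreL in WT was also 0.10 with edgeR, 0.11 with DESeq2 and 0.0077 in the fit of all libraries. With a pseudocount of 1, *Bcl6b* was -0.33 in PreL and -0.056 for PreL against SPG in SKO (-0.0093 in the fit of all libraries), and *Gfra1* 0.39 for LZ against PreL in SKO. With a pseudocount of 50 the interaction of *Lin28a* between PreL and LZ was 0.035. Without SKO PreL replicates 1 and 2, *Zbtb16* was -0.62 and *Sall4* -0.11 in PreL, *Ret* -0.17 and *Bcl6b* -1.19 for PreL against SPG in SKO, and the interactions between PreL and LZ were 0.42 for *Ret*, 0.28 for *Etv5* and 0.0099 for *Lin28a*. With single libraries left out, the ranges that crossed 0 were -0.59 to 0.24 for *Zbtb16* and -0.37 to 0.0047 for *Sall4* in SPG, -0.34 to 0.47 for *Zbtb16*, -0.065 to 0.95 for *Bcl6b* and -0.065 to 0.35 for *Sall4* in PreL, and -0.18 to 0.93 for *Etv5* and -0.31 to 1.38 for *Sall4* in LZ. They were -0.0010 to 0.54 for *Etv5* in PreL against SPG of WT, -0.0078 to 1.16 for *Zbtb16* and -1.01 to 0.74 for *Sall4* in LZ against PreL of WT, -0.78 to 0.66 for *Bcl6b* in PreL against SPG of SKO and -1.27 to 0.13 for *Gfra1* in LZ against PreL of SKO. Those of the interaction between PreL and LZ were -0.88 to 0.26 for *Etv5* and -1.61 to 0.78 for *Lin28a*.

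Libraries with the same replicate number did not deviate together throughout, with correlations of their deviations from -0.19 to 0.13, so the numbers were not taken as pairs. With the replicate number as a block, the genes called numbered 4 in PreL (*Etv5*, *Lin28a*, *Nanos3* and *Ret*), 3 in LZ, 5 for LZ against PreL in SKO and 0 in SPG, for PreL against SPG in either genotype and for both interactions. The block changed the direction of *Sall4* in SPG (0.079), *Lin28a* for PreL against SPG in WT (0.33), and *Gfra1* (-0.20) and *Bcl6b* (-0.78) for PreL against SPG in SKO. No paired analysis was possible for LZ against PreL in WT because these groups share only replicate number 2.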

Other observations

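Some of the lists that mark other cells of the testis differed between genotypes beside the 10 markers, and their part in the markers' differences was not tested. Of all genes, 6.03%, 11.2% and 39.1% were called in either direction for SKO against WT in SPG, PreL and LZ. The share called as higher was 5.34% in PreL and 13.4% in LZ, and 25.8% were called as lower in LZ. Spermatid genes summed to 111 to 306 RPM in WT SPG and to 4.55 to 18.5 in SKO SPG, to 564 to 953 RPM in WT PreL and 12.8 to 19.9 in SKO PreL, and to 590 and 1015 RPM in WT LZ and 10.2 to 11.5 in SKO LZ. Of 10 such genes 7, 6 and 10 were called as lower in SKO in SPG, PreL and LZ by limma. Late spermatocyte genes were called as lower in 3 of 9, 8 of 9 and 10 of 10 tested. Of 14 early meiotic genes, 2 were called as higher in SKO PreL and 2 as lower in SKO LZ, the latter a smaller share than the 25.8% of all genes.

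Leydig cell genes summed to 5.61 to 15.5 RPM in WT SPG and 63.7 to 230 in SKO SPG, with 5 of 8 called as higher in SKO SPG, 6 of 8 in SKO PreL and 6 of 9 in SKO LZ. Macrophage genes were called as higher in 5 of 8, 1 of 8 and 4 of 5 tested, with sums of 9.23 to 16.3 RPM in WT SPG and 90.0 to 172 in SKO SPG. Peritubular myoid genes were called as higher in 4 of 6 in SPG, and 1 of 5 was lower in PreL and in LZ. Of 8 endothelial genes at most 3 passed the filter in these comparisons, with median log2 fold changes of 0.997, 0.90 and 1.38 in SPG, PreL and LZ, 1 gene at an unadjusted p under 0.05 in each stage, and none called by limma. Sertoli cell genes were called as higher in SKO in 1 of 7, 3 of 9 and 2 of 9 in SPG, PreL and LZ.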
